A study of Mus musculus with 8 samples.

Results

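Bile duct and progenitor markers were followed as a set of 8 genes, Krt19, Krt7, Epcam, Sox9, Spp1, Cd24a, Prom1 and Cftr, chosen by symbol as markers of the ductular reaction and of liver progenitor cells. All 8 were present among the 22504 genes of the expression table, and 6 of them passed the filter for testing, as did 10244 genes in all. The 8 RNA sequencing samples came from Fah-/- mice of the 129S4 strain, which lack fumarylacetoacetate hydrolase, the last enzyme of tyrosine breakdown, in every cell of the body. NTBC inhibits the pathway at an upstream step and keeps these mice healthy when given at 7.5 mg/L in the drinking water. The C 8w group (liver, n = 3, samples 1a, 2a and 3a) had 8 weeks of moderate chronic liver injury (MCLI) on 2.5% of the NTBC dose. The C 8w + A 4w group (liver, n = 3, samples C096, C097 and C098) had the same 8 weeks and then 4 weeks of severe acute liver injury (SALI) without NTBC. The C 12w group (tumor, n = 2, samples 2e and 3e) had 12 weeks of MCLI. All groups therefore shared the genotype and 8 weeks or more of injury, no mouse on full NTBC was analysed here, and the labels give neither the age of the mice nor adjacent liver for the tumors. With 2 tumors of unlike profile, 2e and 3e are given one by one throughout.

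Cholangiocytes line the bile ducts, modify bile and express a keratin pair, KRT7 and KRT19, that normal hepatocytes lack. When liver injury persists, strands of duct-like cells spread from the portal tracts into the parenchyma, which is called the ductular reaction, and part of these cells can carry progenitor markers such as EPCAM, SOX9, CD24 and PROM1. Injured hepatocytes can also take up SOX9 and osteopontin, the product of Spp1, and liver tumors may express the same genes. In bulk tissue, more cells of a type and more RNA per cell cannot be told apart.

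The upstream sequences of Epcam and Spp1 are shown because, of the markers with an entry, these were called higher in at least 1 comparison with C 8w. Of the 8 markers, 5 matched an entry of the RefSeq promoter table (build GRCm38.p6). Each line gives the 250 bases before the annotated start, on the + strand, with motif matches in capitals. The windows are chr17:87635729-87635978 for Epcam and chr5:104434861-104435110 for Spp1.
Epcam: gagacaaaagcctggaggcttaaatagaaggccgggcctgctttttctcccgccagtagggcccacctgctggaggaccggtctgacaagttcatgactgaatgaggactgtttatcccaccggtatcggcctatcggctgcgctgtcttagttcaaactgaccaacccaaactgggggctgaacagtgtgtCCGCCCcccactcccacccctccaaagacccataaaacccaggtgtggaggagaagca
Spp1: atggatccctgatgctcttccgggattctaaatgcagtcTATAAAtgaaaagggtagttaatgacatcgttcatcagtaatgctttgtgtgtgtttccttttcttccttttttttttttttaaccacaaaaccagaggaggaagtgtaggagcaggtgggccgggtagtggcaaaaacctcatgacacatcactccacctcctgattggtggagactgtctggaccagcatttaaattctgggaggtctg

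Motifs were searched on both strands as GGAATG (TEAD), TGGGAA (RBPJ), AACAAT (SOX), GGGCGG (the GC box) and TATAAA (the TATA box). The Epcam window held a single match, a GC box starting 58 bases before the start, and 32.7% of the 32851 promoters in the table held that motif. The Spp1 window held TATAAA at 211 bases before the start, found in 12.4% of promoters. These are letter matches, and no binding was measured.

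Expression is given as FPKM, the fragments of a gene relative to its length and to all mapped fragments of the sample. The number of fragments per sample is unknown, and between 9797 and 10658 genes per sample reached an FPKM of 1. The C 8w and C 12w samples carry codes of a different series from those of C 8w + A 4w, so that code series and treatment cannot be told apart in any comparison with C 8w + A 4w. Abundant genes differed along the same division: Gapdh did not exceed 0.247 in any C 8w liver or tumor but was at least 68.2 in each C 8w + A 4w liver, and Alb, the albumin gene, was listed at 0 in the former and reached 12946 or more in the latter. C 12w and C 8w share a code series. RNA of the disrupted gene Fah was at 13.5 to 16.8 in the C 8w livers and tumors and at 5.02 to 6.36 in C 8w + A 4w, and since no exon values were used this level does not check the genotype. The labels describe extraction from retina although the tissue is given as liver or tumor. Of 7 retina markers Rcvrn, Rpe65 and Crx were at 0 in all samples and none of the others but Gnat1 (at most 3.57) reached an FPKM of 1, whereas 10 hepatocyte markers summed to 9637 or more in every sample.

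In the C 8w livers Spp1 had the highest FPKM of the 8 markers, with 8.26, 8.51 and 11.8, and Prom1, at 1.33 to 3.27, came next. The other 6 were at or below 1.74 in each of these livers. FPKM is scaled to gene length, but with the abundant genes Gapdh and Alb at or near 0 in the C 8w livers and tumors, the order of the markers is one of FPKM values and may not be that of RNA abundance. Spp1 held the top place in every sample except C096, where Cd24a was higher. The summed FPKM of the 8 markers was 11.5 to 20.2 in C 8w, 46.3 to 69.0 in C 8w + A 4w, 35.3 in tumor 2e and 348 in tumor 3e. Spp1 made up 58.4% to 72.0% of that sum in C 8w, 24.0% to 51.0% in C 8w + A 4w, 63.0% in 2e and 89.3% in 3e.

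**Figure D1:**
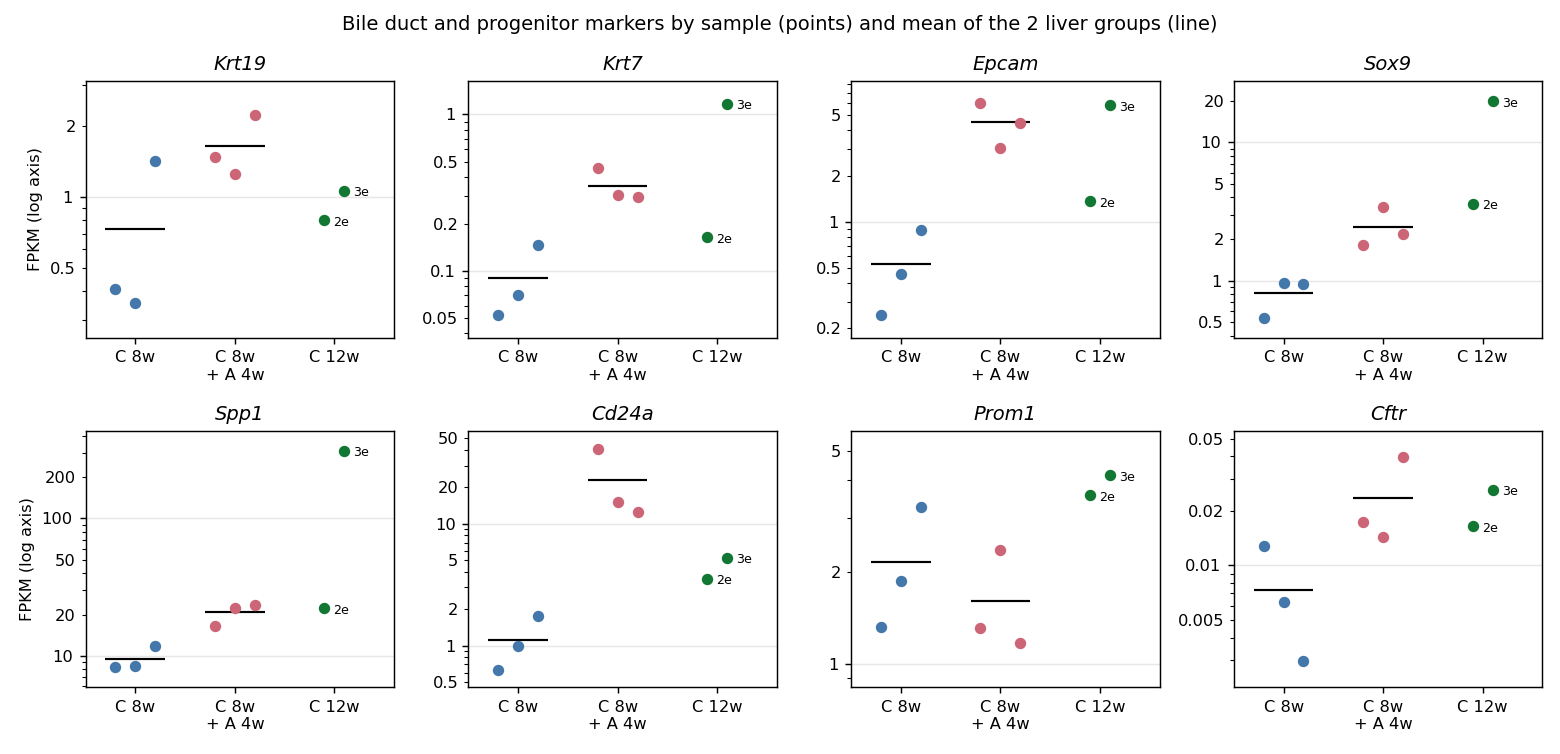
FPKM (log axis) of the 8 markers in each sample, 1 point per sample, with lines at the mean of each liver group (n = 3 each) and the tumors 2e and 3e named. Cd24a is highest in the 3 C 8w + A 4w livers (12.4 to 41.3), while Spp1 and Sox9 are highest in tumor 3e (311 and 19.9).

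The first comparison asked how the markers changed when severe injury followed chronic injury. Fold changes were tested with limma on log2(FPKM + 1), which understates changes of genes with low FPKM, and a gene was called changed when its p, adjusted by the Benjamini-Hochberg method, was under 0.05. RNA of Cd24a and Epcam, which encode surface proteins, rose in C 8w + A 4w over C 8w. The other 4 tested markers did not pass the test in the fit of all 8 samples. Among all tested genes, 25.3% were called higher and 14.1% lower, so that 2 of 6 higher and 0 of 6 lower is near the background.

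Cd24a encodes a small, heavily glycosylated surface protein. Its FPKM was 0.635, 0.989 and 1.74 in C 8w and 41.3, 15.0 and 12.4 in C 8w + A 4w. The groups were far apart, and C096 was well above the other C 8w + A 4w livers. The mean rose 20.4 times, from 1.12 ± 0.564 to 22.9 ± 16.0 (SD, n = 3 each), with a log2 fold change of 3.33 (SE 0.41, adjusted p = 0.000457). Without C096 the C 8w + A 4w mean was 13.7, the ratio 12.2 and the log2 fold change 2.82 (adjusted p = 0.000243, range over all alternatives 0.000243 to 0.00867). Of the 50-base windows of its transcripts, 2.75% also occur in Gm6212, and how reads with several matches were handled is not given in the sources used here.

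Epcam encodes the epithelial cell adhesion molecule of cholangiocytes and progenitor cells. It had FPKM of 0.244, 0.454 and 0.888 in C 8w and of 5.99, 3.07 and 4.45 in C 8w + A 4w. All C 8w + A 4w livers lay above all C 8w livers. The mean went from 0.529 ± 0.328 to 4.50 ± 1.46 (SD, n = 3 each), a ratio of 8.52 (12.9 without 3a), and the log2 fold change was 1.83 (SE 0.37, adjusted p = 0.00577). None of its transcript windows occurs in another gene.

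Prom1, which encodes the membrane protein prominin 1 (CD133) of progenitor and stem cells, behaved differently from Cd24a and Epcam. Its FPKM was 1.33, 1.87 and 3.27 in C 8w and 1.31, 2.36 and 1.18 in C 8w + A 4w. The ranges overlapped, with 3a above every C 8w + A 4w liver, and the log2 fold change was -0.25 (SE 0.24, adjusted p = 0.438). It shares 5.10% of its transcript windows with other genes.

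Krt19, the cytoskeletal keratin most often used to mark bile ducts, had FPKM of 0.408, 0.354 and 1.43 in C 8w. Values in C 8w + A 4w were 1.48, 1.25 and 2.22. Sample 3a stood inside the range of the C 8w + A 4w livers while 1a and 2a were below it. The log2 fold change was 0.66 (SE 0.24, adjusted p = 0.0578), and without 3a it was 0.93 (adjusted p = 0.00962, range over all alternatives 0.00962 to 0.189). Krt7, its partner keratin, was at 0.0526, 0.0705 and 0.148 in C 8w and at 0.453, 0.304 and 0.297 in C 8w + A 4w. These groups did not overlap and their means differed 3.90 times, but Krt7 stayed below the filter. Its log2 fold change was 0.31, with an adjusted p of 0.260 at a lower filter of 0.1 and of 0.485 with no filter.

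Sox9, the transcription factor of duct development, and Spp1, which encodes the secreted phosphoprotein osteopontin, differed by less than Cd24a and Epcam but without overlap between the 2 liver groups. Sox9 was at 0.540, 0.959 and 0.947 in C 8w and at 1.81, 3.38 and 2.17 in C 8w + A 4w. The means were 0.815 ± 0.239 and 2.45 ± 0.822 (SD, n = 3 each), and the log2 fold change of 0.91 (SE 0.47) did not pass the test (adjusted p = 0.154). Spp1 was at 16.6, 22.3 and 23.6 in C 8w + A 4w, against 8.26 to 11.8 in C 8w. The means were 9.53 ± 1.99 and 20.8 ± 3.75 (SD, n = 3 each), and the log2 fold change was 1.05 (SE 0.76, adjusted p = 0.301). Spp1 has the largest shared part of the 8 markers, with 11.6% of its windows also in Gm42793. The spread in this fit is shared by all 3 groups and thus includes the distance between the tumors. When the 2 liver groups were fitted alone, with no tumor, Sox9 (adjusted p = 0.00371), Spp1 (adjusted p = 0.00162) and Krt19 (adjusted p = 0.0466) passed, so that 5 of 6 tested markers were higher, in a fit that called 32.1% of all tested genes higher. Over all alternatives the adjusted p ranged from 0.00367 to 0.385 for Sox9 and from 0.00162 to 0.573 for Spp1. For Cd24a and Epcam it was at most 0.00867 and 0.0432.

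Cftr, the chloride channel of cholangiocytes, was close to 0 throughout. Its FPKM did not exceed 0.0128 in any C 8w liver, 0.0396 in any C 8w + A 4w liver and 0.0262 in the tumors, and no fold is drawn from these levels. Counted over the 8 markers, all 3 C 8w + A 4w livers lay above all 3 C 8w livers for 6, namely Krt7, Epcam, Sox9, Spp1, Cd24a and Cftr. Of the 6 tested markers this held for 4, and it held for 39.0% of all tested genes. Among these 4, Epcam and Sox9 were below an FPKM of 1 in every C 8w liver. They passed the filter only through the C 8w + A 4w livers and the tumors.

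**Figure D2:**
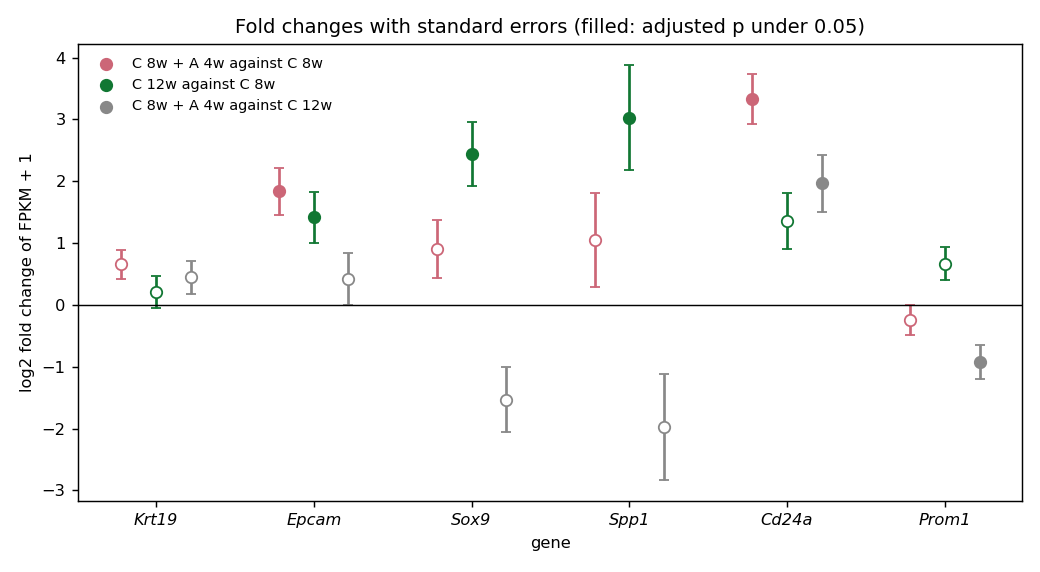
Log2 fold changes of FPKM + 1 with standard errors for the 6 tested markers in 3 comparisons; filled points have an adjusted p under 0.05. Cd24a (3.33) and Epcam (1.83) are filled for C 8w + A 4w against C 8w, and Sox9 (2.44), Spp1 (3.03) and Epcam (1.42) for C 12w against C 8w.

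The second comparison set the tumors against the C 8w livers, within the same code series. As a group, C 12w had higher Sox9, with a log2 fold change of 2.44 (SE 0.52, adjusted p = 0.0173), Spp1, with 3.03 (SE 0.85, adjusted p = 0.0410), and Epcam, with 1.42 (SE 0.42, adjusted p = 0.0471). Cd24a had a log2 fold change of 1.36 (SE 0.45, adjusted p = 0.0664), Prom1 of 0.67 (SE 0.27, adjusted p = 0.110) and Krt19 of 0.21 (SE 0.27, adjusted p = 0.595). Of all tested genes, 12.2% were called higher and 6.98% lower, against 3 of 6 markers higher and 0 lower. The calls were fragile. The call of Sox9 was lost in 6 of 21 alternatives, that of Spp1 in 12 of 20 and that of Epcam in 15 of 21, with adjusted p up to 0.177, 0.249 and 0.247. Leaving out 1a, or leaving out 3a, ended all 3 calls. Cd24a gained a call in 4 of 20 alternatives (adjusted p from 0.0128 to 0.220). In a fit of C 12w and C 8w alone, which called 8.71% of all tested genes higher, Cd24a (adjusted p = 0.0273) and Sox9 (adjusted p = 0.0471) passed, while Epcam (adjusted p = 0.0840) and Spp1 (adjusted p = 0.0914) did not.

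The group values hide 2 unlike tumors. In tumor 3e Spp1 reached an FPKM of 311, 32.6 times the C 8w mean, while in tumor 2e it was 22.2, inside the range of the C 8w + A 4w livers. Sox9 was at 19.9 in 3e and 3.61 in 2e, 24.4 and 4.42 times the C 8w mean. Both tumors were above every liver for Sox9, 2e only slightly so (C097 had 3.38). Epcam was at 5.82 in 3e, close to the highest C 8w + A 4w liver, and at 1.36 in 2e, between the 2 liver groups. Krt7 was at 1.17 in 3e, above all other samples, and at 0.165 in 2e, just above the highest C 8w liver.

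The remaining markers differed little between the tumors. Krt19 was at 0.798 in 2e and 1.06 in 3e, both inside the C 8w range of 0.354 to 1.43. Cd24a was at 3.54 and 5.27, above all C 8w livers and below all C 8w + A 4w livers. Prom1 was at 3.57 and 4.15, the highest values of all samples, though 3a was near them with 3.27. Krt19 and Krt7, the keratin pair of bile ducts, thus had close levels in 3e (1.06 and 1.17) but unlike ratios to their C 8w means, 1.46 for Krt19 and 12.9 for Krt7.

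With 1 sample each, the difference between the tumors has no replicate check and was not tested. Against all tested genes, 3e exceeded 2e by at least 1 on the log2(FPKM + 1) scale for 3 of 6 markers and for 3.66% of genes. The difference was 3.75 for Spp1, and only 7 of 10244 genes had one as large or larger. It was 2.18 for Sox9, with 44 genes at or above it, and 1.53 for Epcam, with 123. For Cd24a it was 0.47, for Krt19 0.20 and for Prom1 0.17, beside a median of 0.11 over all genes. Tumor 2e lay above all 3 C 8w livers for 7 of the 8 markers (5 of the 6 tested), as it did for 44.0% of tested genes. Tumor 3e did so likewise for 7 of the 8 (5 of the 6 tested), beside 55.4% of tested genes. Krt19 was the exception in both.

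**Figure D3:**
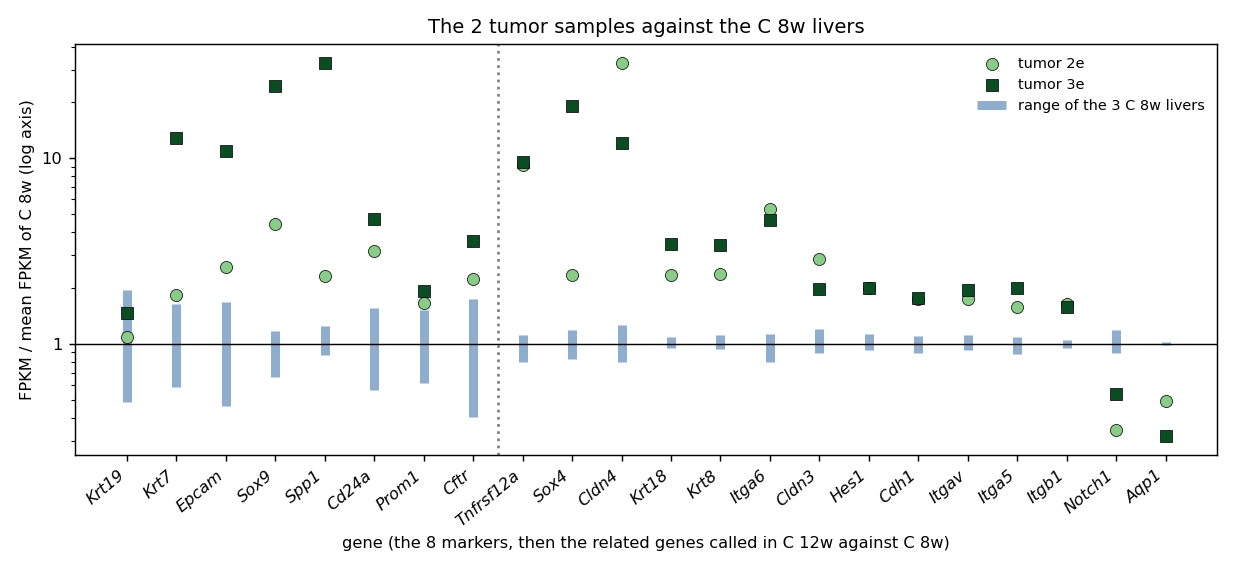
FPKM of tumors 2e and 3e divided by the mean FPKM of C 8w (log axis), for the 8 markers and the 14 related genes called in C 12w against C 8w; vertical bars span the 3 C 8w livers. Spp1 stands at 32.6 in 3e and 2.33 in 2e, whereas Tnfrsf12a stands at 9.57 and 9.15.

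The third comparison set the C 8w + A 4w livers against the tumors after the same 12 weeks in all. Cd24a was higher in C 8w + A 4w, with a log2 fold change of 1.96 (SE 0.45, adjusted p = 0.0119), and Prom1 was lower, with -0.92 (SE 0.27, adjusted p = 0.0317). Of all tested genes, 17.4% were called higher and 15.4% lower, and of the 6 markers 1 and 1. Cd24a was above both tumors in all 3 livers, and Prom1 was below both tumors in all 3. The adjusted p of the Cd24a call ranged from 0.00809 to 0.0681 over the alternatives, with the call lost without a filter. The adjusted p of the Prom1 call ranged from 0.0183 to 0.119 over the alternatives, and was 0.0990 without 3e. Sox9 had a log2 fold change of -1.53 (SE 0.52, adjusted p = 0.0537) and Spp1 of -1.98 (SE 0.85, adjusted p = 0.109). These values rested on 3e. Without 2e they were -2.62 for Sox9 (adjusted p = 0.000163) and -3.85 for Spp1 (adjusted p = 2.04e-05), whereas without 3e they were -0.44 and -0.10. Their adjusted p ranged from 0.000163 to 0.216 and from 2.04e-05 to 0.775. Epcam had a log2 fold change of 0.42 (SE 0.42, adjusted p = 0.472), which was 1.18 without 3e (adjusted p = 0.0221) and -0.35 without 2e. The comparisons share their C 8w or C 12w samples and are not independent of each other.

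Other genes of ducts and of the ductular reaction were taken from 6 lists with 71 genes, of which 40 were tested. In C 8w + A 4w against C 8w, 13 were higher and 6 lower, which is near the 25.3% and 14.1% of all tested genes. In C 12w against C 8w, these counts were 12 and 2, beside 12.2% and 6.98% of all tested genes. Of these 14 calls that of Tnfrsf12a was kept in all 21 alternatives, and the others were kept in between 8 of 20 (Sox4) and 19 of 21 (Cldn3). In C 8w + A 4w against C 12w, they were 5 and 7, beside 17.4% and 15.4%, which is again near the background.

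Among 22 biliary epithelial genes, 9 were tested. In C 8w + A 4w 3 were higher and 1 lower than in C 8w, with a median log2 fold change of 0.69 beside 0.12 over all genes. Cldn4, a tight junction protein, was between 0.106 and 0.169 in C 8w and at 20.2, 11.4 and 8.20 in C 8w + A 4w, without overlap (log2 fold change 3.57, SE 0.33, adjusted p = 9.8e-05). It was at 4.37 in 2e and 1.62 in 3e. St14, the membrane protease matriptase, rose by 1.75, and Cdh1, the cadherin of epithelial junctions, rose by 0.63. Cldn3, another tight junction protein, went the other way. It was at 25.4 to 33.9 in C 8w, 13.2 to 15.8 in C 8w + A 4w, 80.9 in 2e and 55.8 in 3e, so that each group had a range of its own. In C 12w against C 8w, 3 of the 9 were higher (Cldn4, Cldn3 and Cdh1) and 0 lower, and the call of Cldn4 was kept in 15 of 21 alternatives.

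The hepatocyte and duct keratins Krt8 and Krt18 rose in both comparisons with C 8w. Krt8 was at 74.5 to 89.1 in C 8w and at 386 to 465 in C 8w + A 4w, and reached 189 in 2e and 272 in 3e. The log2 fold change of C 8w + A 4w against C 8w was 2.43 (SE 0.17, adjusted p = 1.9e-05). Krt8 shares 29.7% of its transcript windows with other genes, most of them with its pseudogene Krt8-ps, and its level is uncertain to that extent. Krt18 was at 169 to 192 in C 8w, 322 to 359 in C 8w + A 4w, 419 in 2e and 609 in 3e. All samples of the latter groups lay above C 8w.

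Of the signals and receptors of the ductular reaction, 13 genes were listed and 7 tested. Tnfrsf12a, the receptor (Fn14) of the cytokine TWEAK, was at 8.25 to 11.5 in C 8w, 90.1 to 117 in C 8w + A 4w, 94.6 in 2e and 98.9 in 3e. The 5 samples outside C 8w were alike and far above it. Its log2 fold change was 3.15 in C 8w + A 4w (SE 0.16, adjusted p = 2.3e-06) and 3.12 in C 12w (SE 0.18, adjusted p = 0.000139). Tnfsf12, which encodes TWEAK itself, fell by 0.34 on the log2 scale in C 8w + A 4w, a call kept in 11 of 17 alternatives, and 46.8% of its windows are shared with other genes. Itga6, an integrin subunit of epithelial progenitors, rose by 0.78 in C 8w + A 4w and by 1.27 in C 12w. Lgr4, a receptor of R-spondins, fell by 0.54 in C 8w + A 4w. Foxl1, a forkhead transcription factor gene, was at 0 in all 8 samples.

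Among 15 biliary transcription factors and Notch genes, 11 were tested. In C 8w + A 4w the Notch target Hey1 was at 1.03 to 3.63, against 0.112 to 0.212 in C 8w (log2 fold change 1.60, SE 0.30, adjusted p = 0.00423), and Rbpj, the DNA-binding partner of Notch, rose by 0.71. The receptor gene Notch1 fell by 0.54 in C 8w + A 4w, a call kept in 11 of 17 alternatives, and by 1.01 in C 12w. In C 12w the Notch target Hes1 rose by 0.90, at 12.4 in 2e and 12.5 in 3e against 5.73 to 7.03 in C 8w. Sox4, a SOX family factor of duct development, was called higher in C 12w (log2 fold change 2.35, SE 0.65, adjusted p = 0.0378) with 40.9 in 3e and 5.06 in 2e. It shares 54.1% of its windows with other genes, and its call was kept in 8 of 20 alternatives. Tumor 3e had the highest level of all samples for 6 of these 11 genes, for 14 of the 40 tested genes of all related lists and for 29.8% of all tested genes.

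For osteopontin, 9 receptor genes were listed and 7 tested. Itgb3, Itgav and Itgb1, integrin subunits that bind it, rose in C 8w + A 4w over C 8w by 1.12, 0.53 and 0.52 on the log2 scale, and Itga5 fell by 0.66. The call of Itgav was lost under total scaling and kept in 14 of 17 alternatives. In C 12w Itgav, Itgb1 and Itga5 rose by 0.75, 0.68 and 0.74, calls that were kept in 15 of 20, 17 of 21 and 14 of 21. Itgb3 was at 0.953 in 2e and 0.603 in 3e, below the C 8w range of 1.47 to 2.30, while Spp1 was at its highest in 3e. Cd44, another osteopontin receptor, did not pass the test in any comparison. Of 10 genes of duct secretion and transport, 4 were tested. The anion exchanger gene Slc4a2 fell by 0.70 in C 8w + A 4w, and the water channel gene Aqp1 fell by 1.30 in C 12w, a call kept in 16 of 21 alternatives. The nucleotide receptor gene P2ry2 rose by 0.51 in C 8w + A 4w, a call that was lost under all 3 other scalings.

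In C 8w + A 4w against C 12w, the related genes called higher were Cldn4, Itgb3, Ggt1, Krt8 and Aqp1, with log2 fold changes of 1.84, 1.80, 1.31, 0.92 and 0.80. Ggt1, the gamma-glutamyltransferase gene of bile canaliculi and ducts, was at 71.2 to 91.1 in C 8w + A 4w, 22.5 in 2e and 46.2 in 3e. The call of Aqp1 was lost under all 3 other scalings. Those called lower were Cldn3, Onecut1, Itga5, Slc4a2, Hes1, Krt18 and Dll1, with log2 fold changes of -2.17, -1.76, -1.40, -0.77, -0.72, -0.58 and -0.56. Onecut1, a transcription factor gene of hepatocyte and duct development, was at 0.439 to 1.06 in C 8w + A 4w, 1.83 in 2e and 9.96 in 3e. It shares 52.3% of its windows with other genes, and its call was kept in 12 of 17 alternatives. The calls of Krt18 and of the Notch ligand gene Dll1 were kept in 9 of 18 and 6 of 17.

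**Figure D4:**
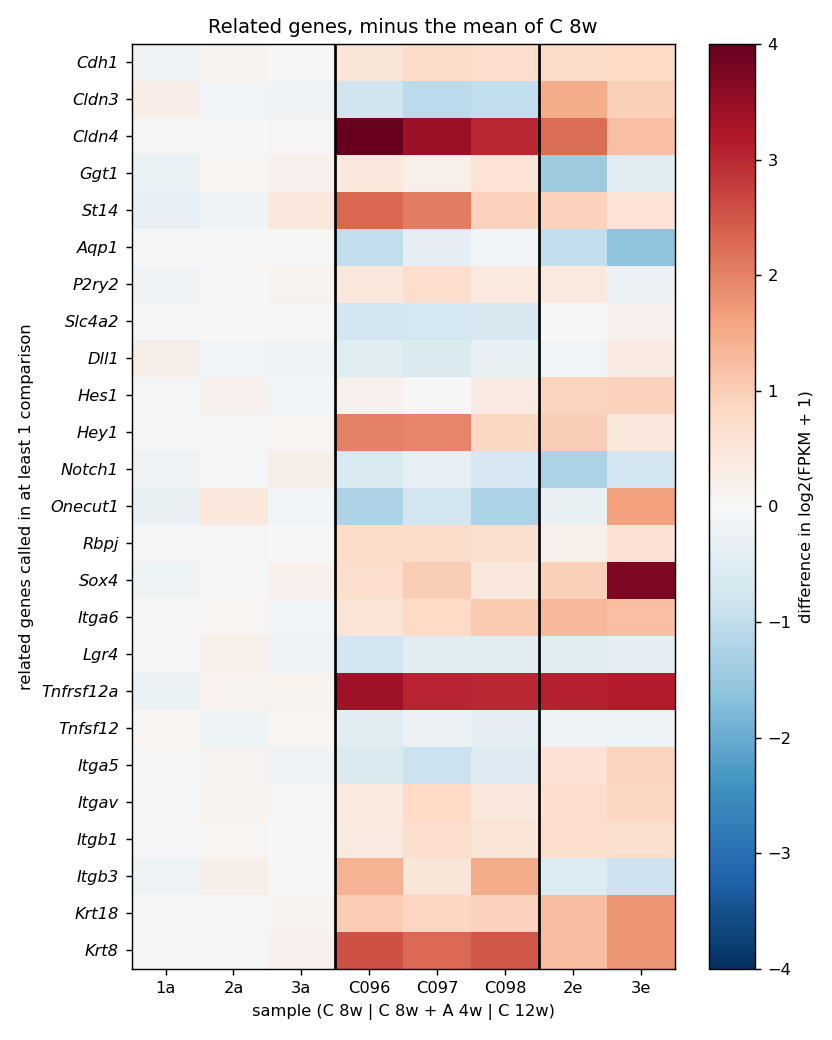
Difference of log2(FPKM + 1) from the mean of C 8w for the 25 related genes called in at least 1 comparison, by sample. Cldn4 and Krt8 are highest in C 8w + A 4w, Tnfrsf12a is alike in the 5 samples outside C 8w, and Sox4 stands out in 3e.

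Markers of other cell types were summed beside these results, and their part in them was not tested. The 12 macrophage markers, relevant because macrophages also make osteopontin, summed to 256 to 292 in C 8w, 331 to 676 in C 8w + A 4w, 371 in 2e and 337 in 3e. The highest sum was that of C097, while 3e, the sample with the most Spp1, had the second lowest sum outside C 8w. Single genes of the list differed from the sum, and 4 of the 12 were above every C 8w liver in 3e. Among these, Trem2 was highest in 3e, at 1.30 against 0.515 in 2e and at most 0.592 in the livers. Lyz2 was at 65.8 in 3e, against 37.2 to 50.5 in C 8w. Cd9, which other cells also express, was at 23.6 to 35.4 in C 8w and 119 to 137 in all other samples. Fabp5, the other gene of this list called in a comparison with C 8w, was at 5.11 to 9.54 in C 8w, 18.5 to 28.3 in C 8w + A 4w (log2 fold change 1.65, adjusted p = 0.00860), 24.4 in 2e and 8.19 in 3e. The other 11 macrophage markers summed to 232 to 266 in C 8w, 224, 557 and 198 in C096, C097 and C098, 251 in 2e and 210 in 3e, so that C096, C098 and 3e were below every C 8w liver and C097 was far above. The 5 mesothelial markers summed to 0.547 to 1.35 in C 8w, 0.562 to 2.59 in C 8w + A 4w, 0.786 in 2e and 5.96 in 3e. Mesothelial cells can express keratins too, and 3e had both the most Krt7 and this highest sum. Of the 5 markers 4 were highest in 3e, while Wt1 was highest in C097 (0.241, against 0.209 in 3e). The keratin Krt19 was at 1.06 in 3e, inside the C 8w range of 0.354 to 1.43. The 8 stellate and fibroblast markers summed to 86.2 to 95.3 in C 8w, 91.4 to 145 in C 8w + A 4w, 73.1 in 2e and 85.1 in 3e. Dcn made up most of this sum, and the other 7 summed to 16.2 to 19.5 in C 8w, 14.2 to 29.7 in C 8w + A 4w, 25.0 in 2e and 44.6 in 3e. Among them the collagen gene Col3a1 was at 2.56 to 4.73 in C 8w and higher in the tumors, with 8.85 in 2e and 15.5 in 3e (log2 fold change 1.60, SE 0.39, adjusted p = 0.0253), but it was called lower in C 8w + A 4w (log2 fold change -1.09, adjusted p = 0.0349). Dcn was called lower in the tumors (log2 fold change -0.71, adjusted p = 0.0311), and no other gene of this list was called in either comparison with C 8w. The 6 endothelial markers summed to 41.5 to 45.5 in C 8w, 19.5 to 36.9 in C 8w + A 4w, 28.2 in 2e and 23.4 in 3e, all below C 8w. Of them Clec4g, Kdr and Stab2 were called lower in both comparisons with C 8w, while Lyve1 was called higher in C 8w + A 4w (log2 fold change 1.18, adjusted p = 0.0177) and Pecam1 passed in neither. The 5 erythroid markers summed to 36.0 to 51.8 in C 8w, 5.69 to 40.4 in C 8w + A 4w, 26.2 in 2e and 12.4 in 3e. The 6 B cell markers summed to 4.66 to 7.99 in C 8w, 1.77 to 5.61 in C 8w + A 4w, 4.59 in 2e and 1.84 in 3e, and the 7 neutrophil markers to 2.81 to 15.3 over all samples. The 6 pancreatic acinar markers summed to 1.18 or less, with Pnlip at 0 in all samples. No hepatocyte or macrophage marker was at 0 in all samples.

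Hepatocyte markers moved in both directions, and their part in the results was not tested either. The 9 hepatocyte markers other than Alb summed to 11566 to 14264 in C 8w, 11324 to 13410 in C 8w + A 4w, 15852 in 2e and 9637 in 3e. Cyp2e1, a cytochrome P450 of pericentral hepatocytes, was called lower in both comparisons with C 8w, at a log2 fold change of -1.25 for C 8w + A 4w and -2.77 for C 12w. In C 8w + A 4w the urea cycle gene Cps1 was called lower (-1.10) and the apolipoprotein gene Apoa1 higher (1.04), and in C 12w the apolipoprotein gene Apob was called higher (0.88). The other 5 did not pass the test in either comparison with C 8w. Among them Cyp3a11, a drug-metabolizing cytochrome P450 gene, was at 804 to 927 in C 8w, 581 to 822 in C 8w + A 4w, 1450 in 2e and 123 in 3e.

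For the 4 markers whose level spanned at least 2 on the log2 scale, the most similar profiles were searched as the smallest root mean square difference of centred log2(FPKM + 1) over the 8 samples. Nearest to Epcam were Bex3 (0.14) and Mfge8 (0.24), and next Dynlt1f (0.25), which shares 88.6% of its windows with other genes. Nearest to Sox9 were Kifc3 (0.19), Sox4 (0.22) and Fgf21 (0.22), and nearest to Spp1 were Fgf21 (0.41), Sox4 (0.42) and Bex1 (0.45). The windows shared with other genes were 12.3% for Bex3, 20.7% for Kifc3, 54.1% for Sox4 and 30.9% for Bex1. Fgf21, a hormone gene of the stressed liver, was at 15.6 to 18.2 in C 8w, 24.3 to 31.6 in C 8w + A 4w, 42.3 in 2e and 228 in 3e. Nearest to Cd24a were Rbp2 (0.41), Cldn4 (0.47) and Hnrnpa1 (0.51). Hnrnpa1, a gene of an RNA-binding protein of nearly all cells, shares 28.2% of its windows with other genes and was at 2.45 to 3.07 in C 8w, 25.3 to 31.8 in C 8w + A 4w, 3.64 in 2e and 5.99 in 3e, and thus, like Gapdh and Alb, was low in all samples of one code series and high in the other. Rbp2, a retinol-binding protein gene, was at 2.73 to 6.25 in C 8w, 33.8 to 55.2 in C 8w + A 4w, 9.51 in 2e and 6.64 in 3e. These likenesses describe 8 samples that share their groups and code series.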

How the data were processed

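RNA sequencing values of 8 samples in 3 groups were used, and groups were taken from the treatment labels. The deposited values are FPKM, that is, fragments that the authors divided by gene length and by the mapped total of the sample. The submitters' processing notes name Bowtie 0.12.2 and the build mm8 without a role. The quantifier, the annotation and the handling of reads with several matches are not given in the sources used here. All columns were used, with 0 from other samples. FPKM keeps no counts, so neither depth nor counting error is known for any sample.

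A gene was tested if 4 or more of the 8 samples had an FPKM of 1 or higher, and log2(FPKM + 1) was compared without further scaling in R 4.3.3 with limma 3.58.1 (lmFit, eBayes with trend), in one fit of the 3 groups, two-sided, with Benjamini-Hochberg adjustment over all 10244 kept genes. The test was checked on simulated data. The p-values measure the spread between these samples only. For shared sequence, all 50-base windows of the GENCODE M21 transcripts were looked up on either strand, and the percentage of a gene's windows found in another gene was taken. Its build differs from that of the files, and no file coordinates were used. Other tables were made with Python 3.11.15, numpy 2.4.6, pandas 2.3.3 and matplotlib 3.10.9.

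The 8 markers and all gene lists were chosen with earlier results of these data known. The text names all 8 markers, Krt8 and Krt18, from the related lists called genes only, up to the 4 largest changes per list and direction, cell marker lists by their sums with the genes at 0, and the 3 nearest profiles of markers spanning at least 2 on the log2 scale. Gapdh, Alb, Fah, Gnat1, Tnfsf12, Cd44, Cd9, Fabp5, Trem2, Lyz2, Wt1, Cyp2e1, Cps1, Apoa1, Apob, Cyp3a11, Dcn, Col3a1, Clec4g, Kdr, Stab2, Lyve1, Pecam1, Foxl1 and the genes named in the closing observations outside this rule were chosen after their values were seen. Some values of other genes are not reported here. Alternatives were a pseudocount of 0.1, other filters or none, scaling by median ratios, totals or quantiles, eBayes without trend, the 2 groups alone, genes with at most 2% shared windows, a fold change limit, each sample left out and a replicate block. The crossed block, the same 4 samples without a block, and the lower filter for Krt7 and Cftr were added after seeing the data.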

Additional observations from a re-analysis of the deposited data

How the results depend on the processing

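The rises of Cd24a and Epcam in C 8w + A 4w over C 8w passed the test under all alternatives run that kept them, and no called related gene changed direction under any alternative. Of the related genes called, 17 of 19, 13 of 14 and 10 of 12 in the 3 comparisons were called under all of median-ratio, total and quantile scaling. Median-ratio and quantile scaling moved the all-gene median of the log2 fold change from 0.12 to 0.0050 and -0.0065 for C 8w + A 4w against C 8w. The share of calls that were higher fell from 64.2% to 49.4% and 47.1% there, and from 63.6% to 47.4% and 46.9% for C 12w against C 8w. Total scaling gave 53.5% and 72.2%, and 35.9% in place of 53.1% for C 8w + A 4w against C 12w.

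Counts below are of all genes, markers and related genes. For C 8w + A 4w against C 8w the counts of 4034, 2 and 19 became 2194, 1 and 11 among genes with at most 2% shared windows (which leaves out Spp1, Cd24a and Prom1), and 1128 and 6 of all and related genes at a log2 fold change of at least 1. Fitting the 2 groups alone gave 5 markers, and leaving out 1 sample gave 2469 (without 1a) to 5189 genes and 2 to 5 markers (5 without either tumor). For C 12w against C 8w the 1962, 3 and 14 became 1241 genes and 9 related genes with at most 2% shared windows, and 533 and 9 with the fold change limit. Markers called were 0 without a filter and 1 under quantile scaling. Leaving out 1 sample gave 677 (without 1a) to 3702 (without 2e) genes, 0 (without 1a or 3a) to 3 markers and 9 to 21 related genes. For C 8w + A 4w against C 12w the 3356, 2 and 12 became 1767 genes and 0 markers with at most 2% shared windows, 1996 genes in the 2 groups alone, 1177, 1 and 6 with the fold change limit, and 0 markers without a filter. Leaving out 1 sample gave 1 to 4 markers and 9 to 19 related genes, the highest without 2e, and a log2 fold change of Epcam from -0.35 (without 2e) to 1.18 (without 3e). The difference between the tumors with a pseudocount of 0.1 was 2.26 for Krt7 (0.90 with a pseudocount of 1), 2.02 for Epcam and 0.12 for Cftr. It was 1.00 for Krt7 under total scaling, and -0.032 for Prom1 under quantile scaling. Where no cause is given, the cause was not tested.

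The replicate numbers 2 and 3 occur in C 8w as well as in C 12w, but nothing in the labels pairs them, and the differences between these numbers correlated at -0.19 across genes. A replicate block on these 4 samples called 252 genes, 1 marker and 5 related genes, against 12, 0 and 1 for the same samples without a block. The crossed pairing called 16, 0 and 1. Without counts, the error of the lowest values, such as those of Cftr and Krt7, is unknown.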

Other observations

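Several duct genes that were left untested for low levels, or that did not pass the test, stood apart in 1 tumor or in both. They were picked after their values were seen and are given as values. Jag1, the Notch ligand whose loss causes a paucity of bile ducts, was at 13.3 in tumor 3e and at most 0.848 in the other samples. Bicc1, an RNA-binding protein gene of tubular epithelia, was at 29.8 in 3e and at most 6.01 elsewhere. Pkhd1, the gene of fibrocystin in the cilia of ducts, was at 2.47 in 3e and at most 0.362 elsewhere. The epithelial factor gene Elf3, in contrast, was at 6.31 in 2e and 0.714 in 3e, with at most 0.574 in the livers. Slc10a2, the bile acid transporter of cholangiocytes and ileum, was at 4.60 in 2e and 11.0 in 3e, and at most 0.202 in the livers. Other untested genes of the same lists were lowest of all samples in 3e. Ano1 was at 0.196 in 3e, against 0.911 in 2e, 0.389 to 0.977 in C 8w and 1.70 to 2.64 in C 8w + A 4w. Muc1 was at 0.0795 in 3e, against 0.457 in 2e, 0.174 to 0.521 in C 8w and 0.137 to 0.515 in C 8w + A 4w.

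Liver 3a, whose Krt19 of 1.43 lay inside the range of the C 8w + A 4w livers, also had more Mmp7 and Dmbt1, both expressed in injured duct epithelium, than the other C 8w livers. Mmp7 was at 1.28 in 3a, against 0.0264 and 0.0510 in 1a and 2a, and Dmbt1 was at 2.83, against 0.00362 and 0.0105. Among the C 8w + A 4w livers, C098 was the highest for Krt19 (2.22), Mmp7 (2.70) and Dmbt1 (0.620). In tumor 3e Mmp7 and Dmbt1 were listed at 0. No comparison was made between groups formed from these values.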
